A study of Bubalus bubalis with 36 samples.

Results

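The miR-181 family in buffalo fat comprised 4 rows of the count table, miR-181a, miR-181b, miR-181c and miR-181d, out of 1682 features. The members were taken by name, as bovine miR-181 names with a letter from a to d, with any arm suffix or none, and 0 arm-suffixed rows were found. All 4 were detected in 36 of 36 libraries and passed the filter on low counts, which left 667 features to test. The libraries are small RNA libraries of adipose tissue from the water buffalo, Bubalus bubalis. The same 6 buffaloes were sampled at 6 depots each, and each group is 1 depot with 6 libraries. The subcutaneous depots were back (BSAT), sternum (SSAT) and inguinal (IAT) adipose tissue, and visceral fat came from the omentum (OAT), around the heart (pericardial, PCAT) and around the kidney (perirenal, PRAT). All animals had the same history of weaning at 3 months, fattening from 15 months and slaughter at 20 months of age, and no treatment or genotype separates the groups. Whole pieces of tissue were sequenced, so a lower level can reflect fewer cells of a type or less RNA per cell, which cannot be told apart. The libraries of a group come from separate animals, and an animal's number marks its libraries, so SSAT4 is the sternum library of buffalo 4.

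The miR-181 family is a group of conserved microRNAs that share a seed, the stretch near the 5′ end by which a microRNA pairs with its targets. In mammals miR-181a and miR-181b are made from the same clustered precursors, and miR-181c and miR-181d from another cluster, which in human lies close to the miR-23a, miR-27a and miR-24 cluster. miR-181a is known from mouse thymocytes as a factor that raises the sensitivity of the T-cell receptor. miR-181b is known from mouse endothelium as a brake on NF-kappaB signalling, and the family has been tied to inflammation of white fat and insulin response in mice. The mature members differ from one another at few bases, so counting may move reads between them, and the value of a single member is less certain than that of the family.

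Library totals ran from 9484589 to 13920998 counts with a median of 12525362, and levels are given as CPM, the counts per 1e+06 reads of a library total scaled by TMM factors, which ran from 0.745 in SSAT4 to 1.26. All 13 tested miRNAs of the list of abundant adipose miRNAs can be found in other tissues too, so the labelled tissue was not checked against a fat-specific marker. The library names carry a letter A or B whose meaning is not given; 8 libraries carry A, and 7 of these are visceral. PRAT6 stood apart from the other perirenal libraries: its summed level of muscle miRNAs was 1296 CPM, against 55.3 to 120 CPM in the other 5, and that of the adipose list was 95012 CPM, against 22231 to 48619 CPM. PRAT6 also had the lowest library total of the 36. Member tests whose call changed without PRAT6 or SSAT4 are given with and without that library.

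The members differed widely in abundance, with miR-181a the dominant form in every library. bta-miR-181a averaged 32102 CPM over the 36 libraries and took 3.22% of all counts, which placed it 7th by mean among the bovine miRNA names. bta-miR-181b averaged 2371 CPM, bta-miR-181c 246 CPM and bta-miR-181d 26.6 CPM. As shares of the family's reads, miR-181a took 92.2% ± 1.25, miR-181b 6.94% ± 1.12, miR-181c 0.761% ± 0.403 and miR-181d 0.0829% ± 0.0444 (SD, n = 36). The share of miR-181a lay between 89.4% and 94.4% in every library. These are reads, and the ligation and amplification of small RNA libraries differ between sequences, so a share of reads is not a share of molecules. The smallest counts behind a value were 166311 reads for miR-181a, 14833 for miR-181b, 1657 for miR-181c and 182 for miR-181d, so counting error was largest for miR-181d.

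miR-181a and miR-181b varied little between libraries. The SD of log2 CPM over the 36 libraries was 0.37 for miR-181a, 0.31 for miR-181b, 0.51 for miR-181c and 0.49 for miR-181d, against a median of 0.81 over the 289 tested features with a mean of at least 10 CPM. Of those 289 features, 2 had a smaller SD than miR-181b and 17 a smaller SD than miR-181a, whereas 44 lay below miR-181d and 53 below miR-181c. The depot accounted for 5.08% of the variance of log2 CPM of miR-181a, 19.0% of miR-181b, 21.3% of miR-181c and 33.5% of miR-181d, and the median over the tested features was 18.6%. For the animal the shares were 14.4% for miR-181a, 14.8% for miR-181b, 27.3% for miR-181c and 15.8% for miR-181d. The median over the tested features was 20.0%. None of these shares is corrected for chance, and a grouping into depots or animals takes up part of the variance even with no effect. A small share is therefore no evidence of an effect of depot or animal, and the shares were not tested.

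miR-181a, the most abundant member, overlapped in level across all depots. The lowest, median and highest libraries had 19779, 31930 and 45138 CPM in BSAT, 20164, 31069 and 40422 CPM in SSAT, and 25983, 30089 and 37207 CPM in IAT. They had 21751, 33202 and 50266 CPM in OAT, 23772, 29853 and 37435 CPM in PCAT, and 18109, 35595 and 52554 CPM in PRAT. The 6 ranges overlapped, and the perirenal depot held both the highest and the lowest library of the 36.

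miR-181b had its narrowest spreads in IAT and BSAT, both subcutaneous. Its lowest, median and highest libraries had 2143, 2327 and 2516 CPM in BSAT, 1652, 2422 and 2496 CPM in SSAT, and 1961, 2148 and 2233 CPM in IAT. They had 1534, 2534 and 3282 CPM in OAT, 1798, 2040 and 2438 CPM in PCAT, and 1615, 2706 and 4914 CPM in PRAT. The ranges overlapped in all depots, and the highest library, PRAT5, lay above every other. miR-181b averaged 2259 ± 221 CPM in the subcutaneous libraries and 2484 ± 792 CPM in the visceral libraries (SD, n = 18 each), a coefficient of variation of 9.78% and of 31.9%. In IAT alone the mean was 2138 ± 99.8 CPM, and in PRAT it was 2905 ± 1138 CPM (SD, n = 6 each). Visceral PCAT, at 2069 ± 262 CPM, had a smaller SD than subcutaneous SSAT, at 2304 ± 325 CPM (n = 6 each). The difference in spread was not tested.

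miR-181c was most abundant in SSAT and least abundant in PRAT. In SSAT the libraries of buffaloes 1 to 6 had 158, 267, 334, 459, 384 and 329 CPM. In PRAT they had 167, 135, 124, 158, 179 and 493 CPM. Apart from PRAT6, which had the highest level of the 36 libraries, every perirenal library lay below 5 of the 6 sternum libraries. The lowest, median and highest libraries had 138, 233 and 281 CPM in BSAT, 157, 233 and 270 CPM in IAT, 147, 203 and 328 CPM in OAT, and 161, 261 and 377 CPM in PCAT, and these ranges overlapped with one another and with that of SSAT.

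By mean CPM miR-181d, the least abundant member, was also highest in SSAT. Its lowest depots were PRAT and BSAT, with means of 21.4 ± 10.5 and 21.2 ± 3.86 CPM (SD, n = 6 each). In deposited RPM its means were 32.9 in SSAT and 31.7 in PCAT. In SSAT the libraries of buffaloes 1 to 6 had 21.9, 31.7, 31.3, 78.6, 35.3 and 32.9 CPM. In PRAT they had 14.3, 14.6, 16.8, 17.0, 24.1 and 41.6 CPM. SSAT4 was the highest and PRAT6 the next highest of the 36 libraries, and without these the other 5 sternum libraries and the other 5 perirenal libraries still overlapped through SSAT1 and PRAT5. The lowest, median and highest libraries had 17.8, 20.5 and 27.5 CPM in BSAT, 20.3, 25.0 and 27.3 CPM in IAT, 15.1, 24.7 and 35 CPM in OAT, and 20.2, 29.1 and 39.5 CPM in PCAT.

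**Figure D1:**
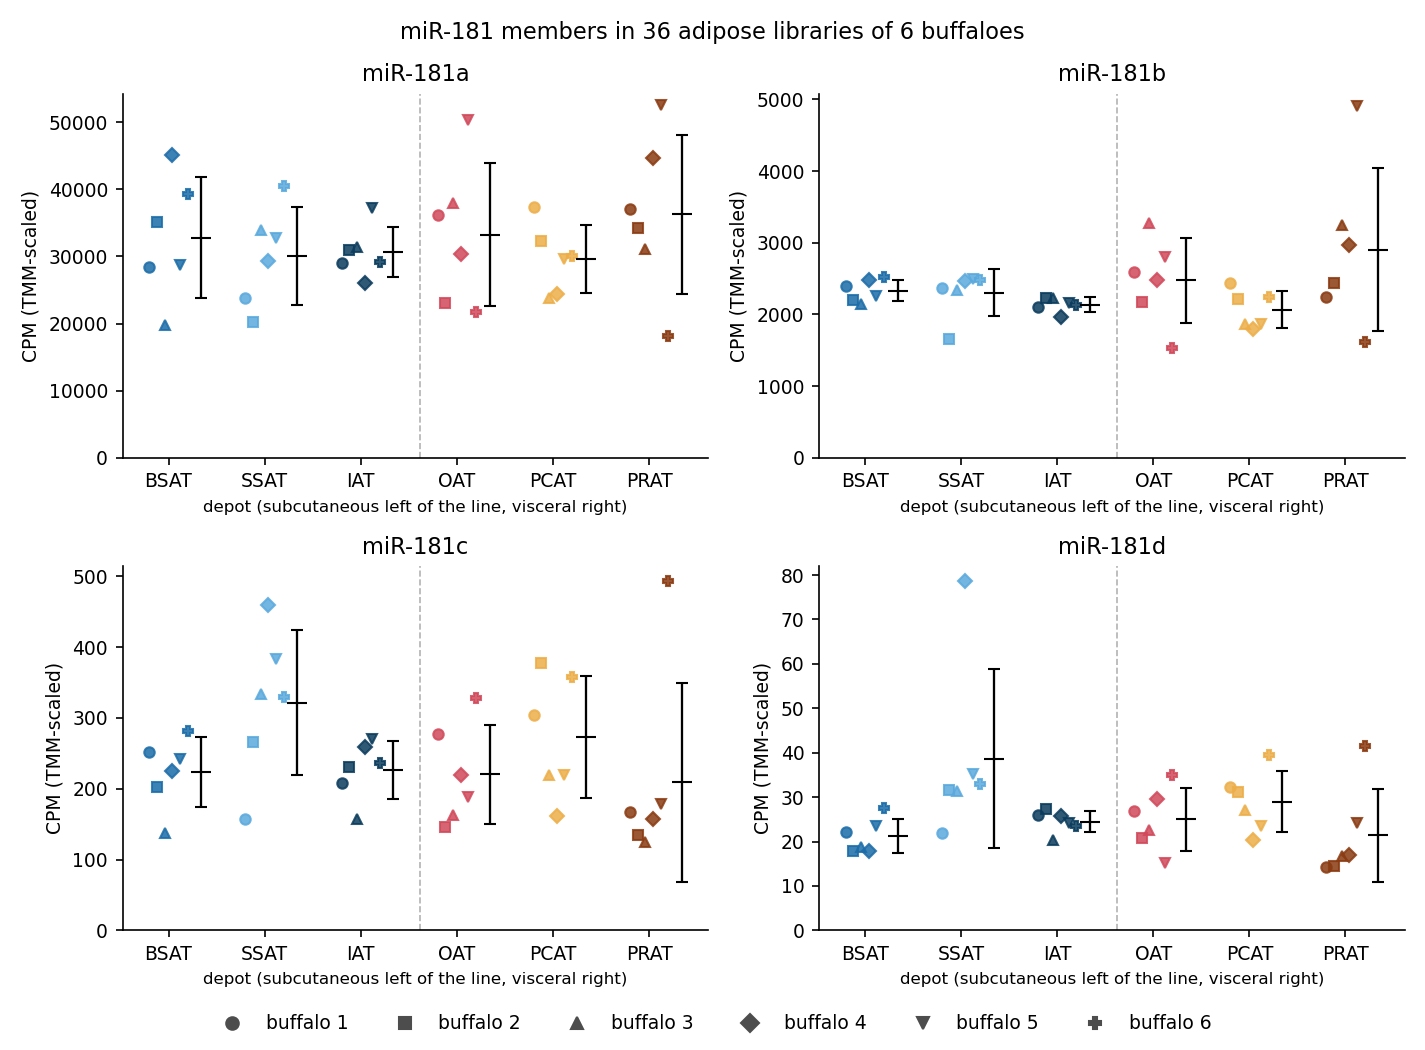
Level of each miR-181 member (CPM, TMM-scaled, axes from 0) in the 36 libraries by depot, with 1 symbol per buffalo and the mean ± SD of the 6 libraries beside it. miR-181a and miR-181b overlap in all depots, and SSAT4 at 78.6 CPM of miR-181d and PRAT6 at 493 CPM of miR-181c lie above the rest of their depots.

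With TMM scaling no difference between subcutaneous and visceral fat was detected for any member. Between these classes, 0 of 4 members passed an adjusted p of 0.05 in edgeR's quasi-likelihood test with Benjamini-Hochberg adjustment over the 667 features, and 0 of 4 had an unadjusted p under 0.05. DESeq2 called 0 of 4 and limma on log2(RPM + 1) 0 of 4. In limma, though, 2 of 4 had an unadjusted p under 0.05. These were miR-181a at a log2 difference of -0.27 (adjusted p = 0.131) and miR-181b at -0.29 (adjusted p = 0.0794). Over all features 16.5% were called in this comparison. The subcutaneous mean of miR-181a was 31155 ± 6720 CPM and its visceral mean 33048 ± 9464 CPM (SD, n = 18 each), a fitted log2 difference of -0.08 ± 0.13 (SE) with a 95% interval of -0.35 to 0.19 and an adjusted p of 0.710. miR-181b had a log2 difference of -0.12 ± 0.11 (SE), an interval of -0.36 to 0.11 and an adjusted p of 0.50. Both were lower in subcutaneous fat in most animals: miR-181a was higher there in 2 of 6 animals and miR-181b in 1 of 6.

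miR-181c and miR-181d had fitted differences of the other sign. The subcutaneous mean of miR-181c was 257 ± 80.7 CPM and its visceral mean 234 ± 101 CPM (SD, n = 18 each), a log2 difference of 0.12 ± 0.17 (SE) with an interval of -0.23 to 0.48 and an adjusted p of 0.667. The subcutaneous mean of miR-181d was 28.1 ± 13.6 CPM and its visceral mean 25.1 ± 8.42 CPM, a log2 difference of 0.13 ± 0.16 (SE) with an interval of -0.20 to 0.46 and an adjusted p of 0.626. They were higher in subcutaneous fat in 4 of 6 and 5 of 6 animals. Among the letter B libraries alone the log2 differences were -0.10, -0.20, 0.15 and 0.13 for miR-181a to miR-181d. The intervals leave out a doubling in either direction for every member. Without SSAT4 the difference of miR-181d was 0.0059 and that of miR-181c 0.071. The size of the miR-181d difference thus rested on 1 library. Its sign held over the single-library omissions, which gave 0.0059 to 0.23. Without PRAT6 the differences of miR-181d and miR-181c were 0.23 and 0.28. Without PRAT5 the differences of miR-181a and miR-181b were -0.025 and -0.032. Scaled by library totals alone, which moved the median of all features by -0.20, miR-181b was called at -0.32 with an adjusted p of 0.0469. Under that scaling miR-181a was -0.28 with an adjusted p of 0.0896, and miR-181c and miR-181d turned to -0.083 and -0.091.

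The median absolute log2 difference between the classes was 0.12 over the 4 members and 0.42 over all tested features. The 4 members summed to 33699 ± 6881 CPM in subcutaneous libraries, against 35791 ± 10061 CPM in visceral ones (SD, n = 18 each). It was 39408 ± 12660 CPM in PRAT, the highest mean of the 6 depots, and 31986 ± 5379 CPM in PCAT, the lowest (SD, n = 6 each). Nearly all of this sum is miR-181a, so the family total repeats the pattern of that member. The log2 difference of the sum, subcutaneous minus visceral, was -0.063 with TMM scaling and -0.27 in deposited RPM.

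In a test over all 6 depots, 0 of 4 members passed the edgeR F test, where 13.9% of all features did. The adjusted p was 0.878 for miR-181a, 0.382 for miR-181b, 0.492 for miR-181c and 0.126 for miR-181d, whose unadjusted p of 0.0312 was the 1 below 0.05. The fitted log2 range from the lowest to the highest depot was 0.29 for miR-181a, 0.49 for miR-181b, 0.62 for miR-181c and 0.86 for miR-181d. DESeq2 called miR-181d in this test with an adjusted p of 0.0150, and limma called 0 of 4. Without PRAT6, edgeR called miR-181b with a range of 0.74 and an adjusted p of 0.0458, and miR-181d with a range of 1.15 and an adjusted p of 0.0236, and the range of miR-181c was 1.08 with an adjusted p of 0.0639. Without SSAT4 the range of miR-181d was 0.53 with an adjusted p of 0.476.

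miR-181d was higher in sternum fat than in the mean of the other 5 depots. It averaged 38.6 ± 20.1 CPM in SSAT (SD, n = 6) and 24.2 ± 6.89 CPM in the other 30 libraries. The fitted log2 difference was 0.68 ± 0.21 (SE), a fold of 1.61, with a 95% interval of 0.26 to 1.1 and an adjusted p of 0.0348 in edgeR's quasi-likelihood test. SSAT was higher in 5 of 6 animals, and 5 of its 6 libraries lay above the median of the other 30, but only SSAT4 lay above their highest. In SSAT 9.3% of all features were called and 5.55% were called higher.

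The call of miR-181d in SSAT rests on SSAT4. Without it the sternum libraries averaged 30.6 ± 5.13 CPM (SD, n = 5), the log2 difference was 0.34 and the adjusted p was 0.381, and 22 features were called in SSAT, against 62 with SSAT4. The other 35 single-library omissions kept the call. It was also lost under library totals alone, at 0.42 with an adjusted p of 0.178, which moved the median of all features in SSAT by -0.22. limma on log2(RPM + 1) gave 0.37 with an adjusted p of 0.254. Among letter B libraries alone it was 0.71 with an adjusted p of 0.0651, with a term for the letter 0.64 with 0.0708, and with no filter on low counts 0.75 with 0.0898.

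Across the 6 depots, 1 of 24 tests of a member against the mean of the other 5 depots was called, that of miR-181d in SSAT, and 3 of 24 had an unadjusted p under 0.05. Over all features 4.27% of such tests were called, with 2.25% in BSAT, 0.3% in IAT, 1.5% in OAT, 9.15% in PCAT and 3.15% in PRAT. The other members differed as follows. miR-181c in SSAT had a log2 difference of 0.49 ± 0.23 (SE) with an adjusted p of 0.182, and 5 of 6 animals were higher. Its value was 0.64 without PRAT6, with an adjusted p of 0.0236, and 0.35 without SSAT4, with an adjusted p of 0.473. miR-181b had a log2 difference of 0.36 ± 0.15 (SE) in PRAT, with an adjusted p of 0.230 and 4 of 6 animals higher. Without PRAT6 it was called at 0.54 with an adjusted p of 0.0229, and without PRAT5, its highest library, it was 0.19 with an adjusted p of 0.612.

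The remaining depots showed no called member, and some of their values leaned the same way in most animals. miR-181a in PRAT had a log2 difference of 0.22 ± 0.17 (SE) from the other depots, with an adjusted p of 0.616 and 5 of 6 animals higher. miR-181d in BSAT had a log2 difference of -0.35 with an adjusted p of 0.576, and was lower there in 6 of 6 animals. In PCAT the log2 difference was -0.14 for miR-181a, with an adjusted p of 0.733 and a turn to 0.028 under library totals alone, and -0.22 for miR-181b, with an adjusted p of 0.469. Without PRAT6 the difference of miR-181a was 0.41 in PRAT and -0.26 in PCAT, and that of miR-181b in PCAT was -0.35, with adjusted p-values of 0.157, 0.368 and 0.134. These comparisons share libraries, since each depot is also part of the mean set against the others.

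**Figure D2:**
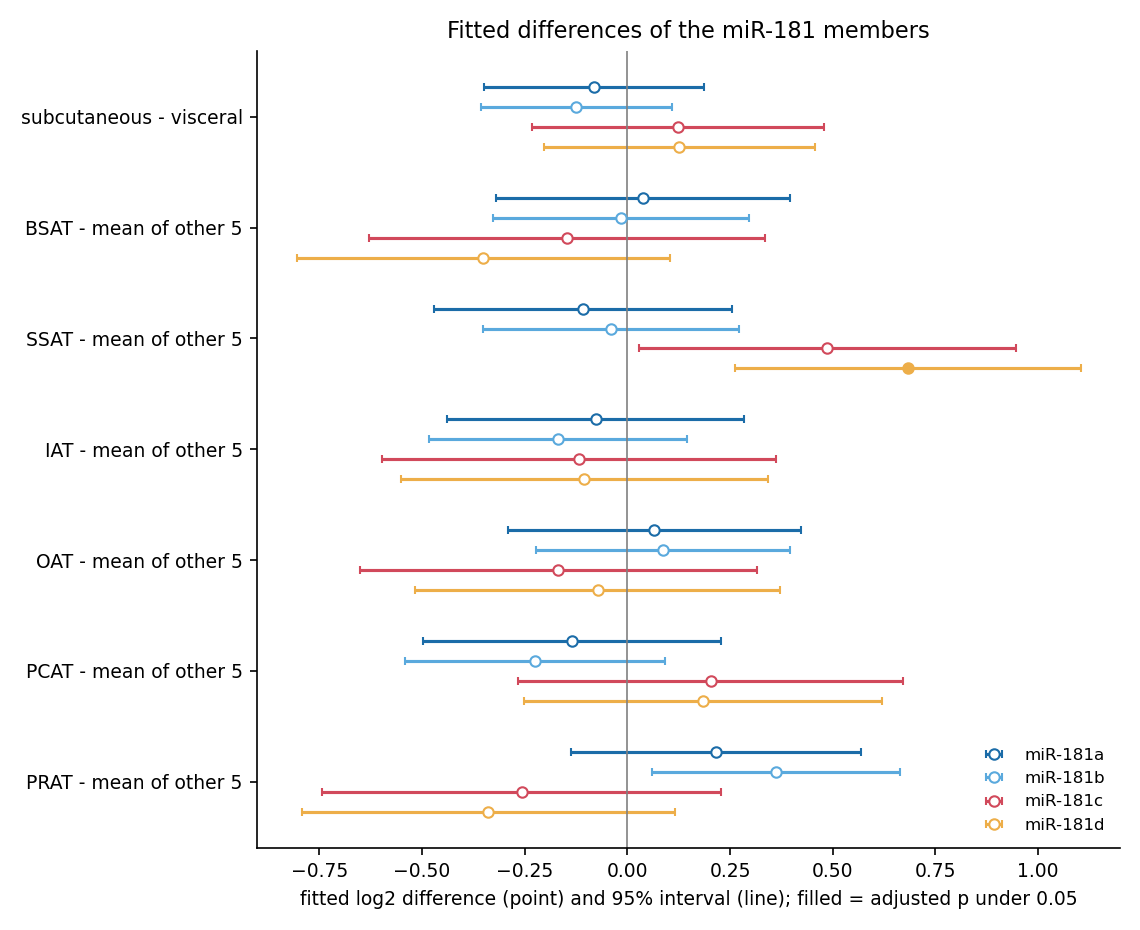
Fitted log2 differences of the 4 members with 95% intervals, between subcutaneous and visceral fat and between each depot and the mean of the other 5. Of the 28 intervals shown, the filled point of miR-181d in SSAT at 0.68 marks the adjusted p under 0.05.

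The depots ranked differently for the members. By mean log2 CPM, miR-181a was ordered PRAT, OAT, BSAT, IAT, SSAT and PCAT from the highest down, and miR-181b PRAT, OAT, BSAT, SSAT, IAT and PCAT. miR-181c was ordered SSAT, PCAT, IAT, BSAT, OAT and PRAT, and miR-181d SSAT, PCAT, IAT, OAT, BSAT and PRAT. None of the 20 pairs of neighbours in these orders differed by edgeR's test, with adjusted p-values from 0.376 to 0.996. By mean log2 CPM PRAT was the top depot of miR-181a and miR-181b and the bottom depot of miR-181c and miR-181d. For miR-181d, though, the mean CPM and the fit put BSAT level with or just below PRAT. The fitted log2 difference of BSAT over PRAT was -0.0098. These orders use TMM scaling. In deposited RPM the means of miR-181a and miR-181b were lowest in SSAT, and that of miR-181c was highest in PCAT and lowest in BSAT.

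In the direct tests between depots, 0 of 60 were called by edgeR, 7 of 60 had an unadjusted p under 0.05, DESeq2 called 3 of 60 and limma 0 of 60. Over all features 2.83% of the pairwise tests were called, and 7.2% in SSAT over PRAT. The widest differences were those of miR-181d, at 0.85 in SSAT over PRAT with an adjusted p of 0.0573 and at -0.86 in BSAT over SSAT with an adjusted p of 0.186. miR-181c differed by 0.62 in SSAT over PRAT, with an adjusted p of 0.201. For miR-181b the difference of PCAT over PRAT was -0.49, with an adjusted p of 0.191, and for miR-181a it was -0.29, with an adjusted p of 0.567. A model with animal blocks called miR-181d in SSAT over PRAT at 0.88 (adjusted p = 0.0452). Without PRAT6, 3 of the 60 tests were called: miR-181d in SSAT over PRAT at 1.15 with an adjusted p of 0.00932, miR-181c in SSAT over PRAT at 1.08 with an adjusted p of 0.0129, and miR-181b in PCAT over PRAT at -0.74 with an adjusted p of 0.0182. Without SSAT4, miR-181d differed by 0.51 in SSAT over PRAT, with an adjusted p of 0.270, and by -0.53 in BSAT over SSAT, with an adjusted p of 0.664. Of the 36 single-library omissions, 23 called miR-181d in SSAT over PRAT.

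The members moved in pairs that match their clusters in other mammals. Over the 36 libraries, Pearson's r of log2 CPM was 0.75 for miR-181a with miR-181b and 0.85 for miR-181c with miR-181d, and Spearman's rho was 0.75 and 0.86. Across the pairs r was -0.11 for miR-181a with miR-181c, -0.29 for miR-181a with miR-181d, -0.32 for miR-181b with miR-181c and -0.23 for miR-181b with miR-181d. With each depot's mean removed, r was 0.75 within the first pair and 0.82 within the second. Without the 2 libraries farthest from the median it was 0.68 for miR-181a with miR-181b and 0.83 for miR-181c with miR-181d. These are descriptions: the libraries share 6 animals, members of a library share its depth and scaling, and reads of near-identical members may be moved between rows.

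**Figure D3:**
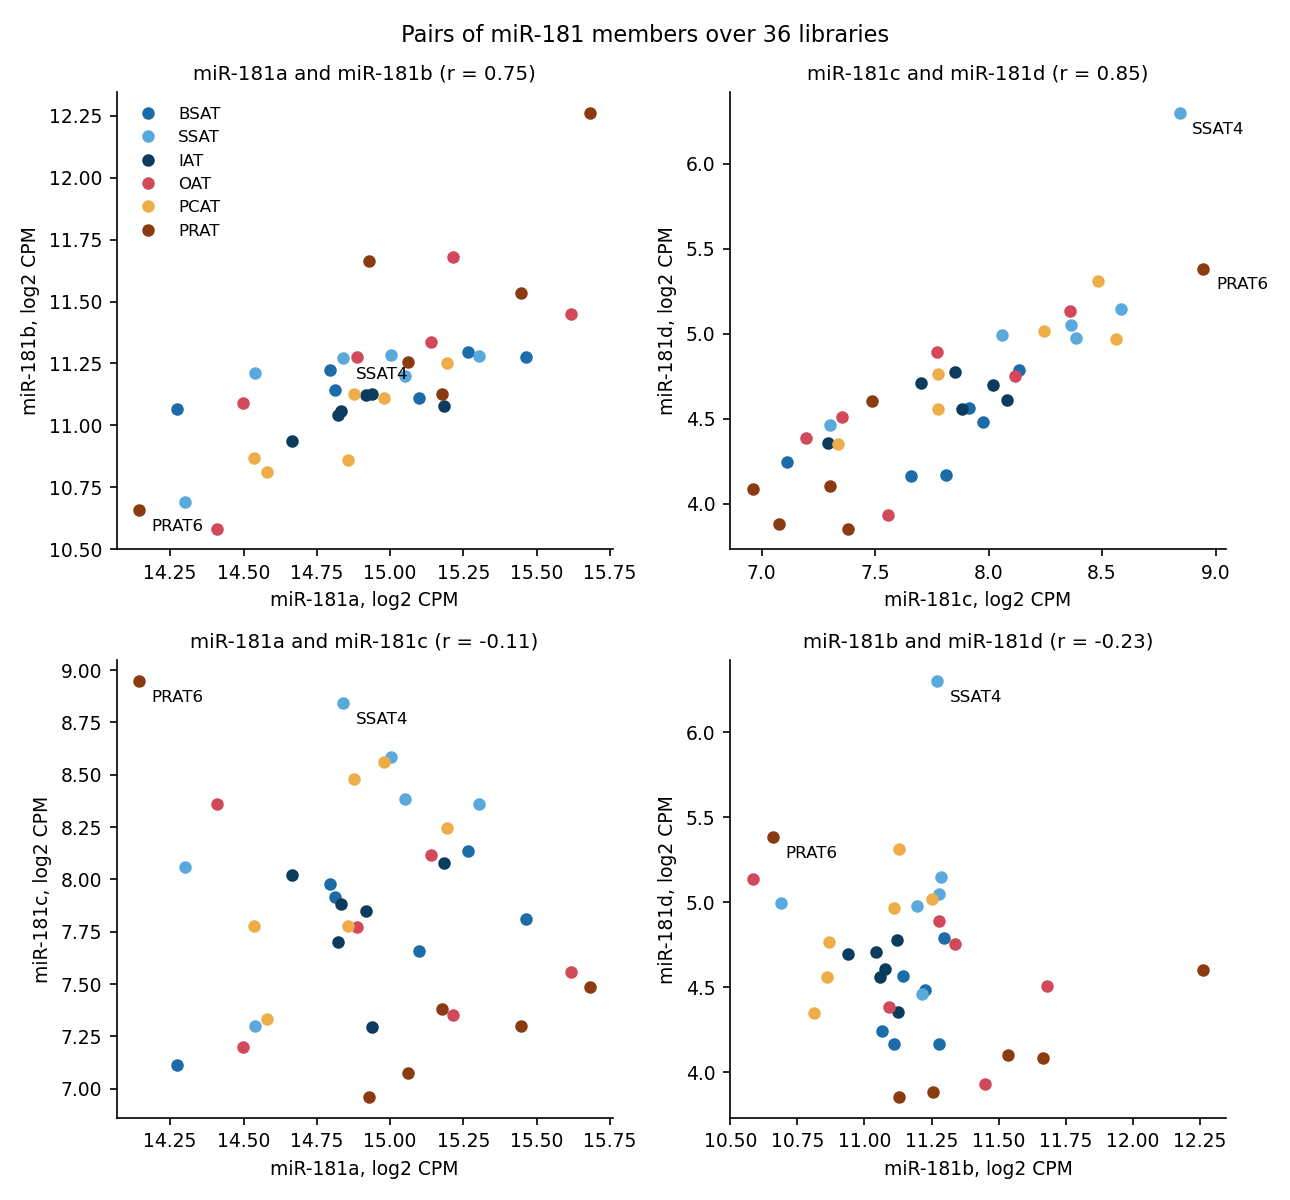
Log2 CPM of pairs of miR-181 members in 36 libraries, coloured by depot, with Pearson's r above each panel. The upper panels show miR-181a with miR-181b (r = 0.75) and miR-181c with miR-181d (r = 0.85), and the lower panels show pairs across the clusters, where r is -0.11 and -0.23; PRAT6 and SSAT4 are marked.

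Each member's highest r was with its partner inside the family, by a wide margin except for miR-181a. Of 205 other named miRNAs with a mean of at least 10 CPM, 0 had a higher r with a member than its partner in the pair. Outside the family, miR-181a was most like miR-1468 (r = 0.75), miR-378d (0.64) and miR-139 (0.62), with r for miR-1468 at 0.747 beside 0.749 for miR-181b, which is effectively a tie. miR-181b was most like miR-139 (0.49), miR-193a-5p (0.48) and miR-1468 (0.47). miR-181c was most like miR-497 (0.60), miR-27b (0.58) and miR-100 (0.57), and miR-181d was most like miR-26b (0.57), miR-497 (0.56) and miR-2285aj-5p (0.53). The summed family was most like miR-1468 (0.74), miR-378d (0.64) and miR-139 (0.62), as its main member was. All these values are over 36 libraries.

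The balance between the pairs within a library does not depend on how libraries are scaled. Reads of miR-181a and miR-181b per read of miR-181c and miR-181d averaged 96.8 ± 31.7 in SSAT, 111 ± 25.2 in PCAT, 134 ± 30.5 in IAT, 145 ± 32.3 in BSAT, 160 ± 71.0 in OAT and 216 ± 91.0 in PRAT (SD, n = 6 each). The ratio was 217 to 283 in 5 libraries of PRAT, and all 5 lay above every sternum library, of which SSAT4 was the lowest at 59.2. The sixth perirenal library, PRAT6, had 36.9, the lowest of all 36.

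Within animals, the log2 ratio of miR-181c and miR-181d to miR-181a and miR-181b was higher in SSAT than in the other depots by 0.60 ± 0.76 (SD over 6 animals), in 4 of 6 animals. In PRAT it differed from the other depots by -0.58 ± 1.01 and was higher in 1 of 6 animals. In PCAT the mean difference was 0.33, with 5 of 6 animals higher, and between subcutaneous and visceral fat it was 0.24 ± 0.72, with 5 of 6 animals higher. The ratio was given no test, since it was formed from members whose levels were already known.

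**Figure D4:**
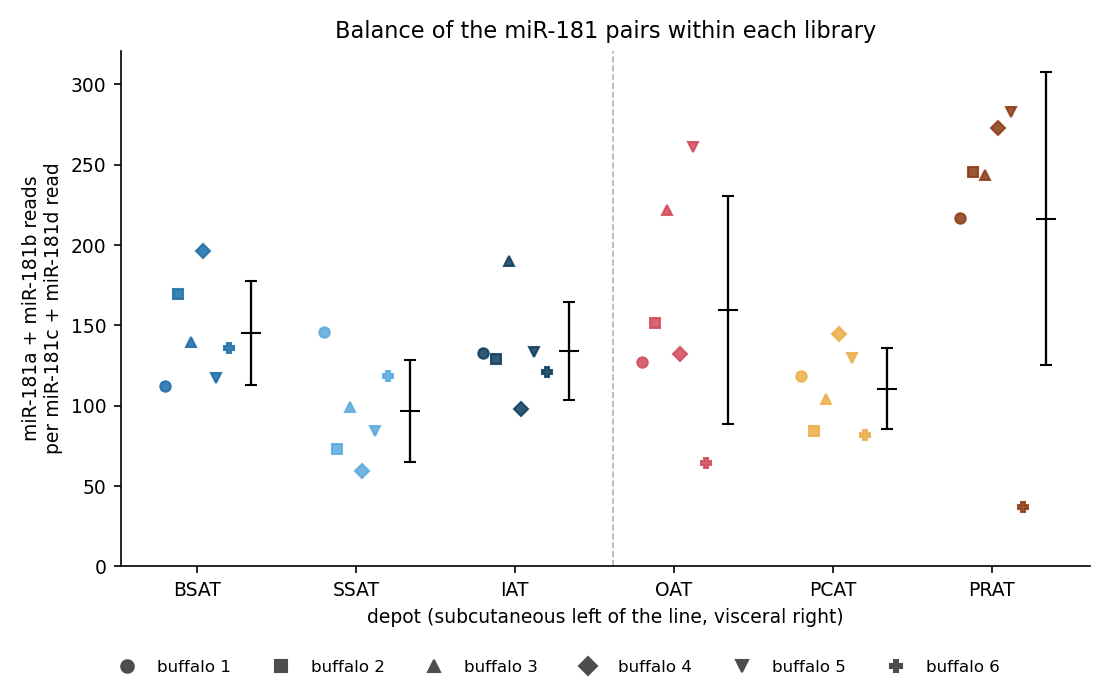
Reads of miR-181a and miR-181b per read of miR-181c and miR-181d in each library, by depot and buffalo, with the mean ± SD of 6 libraries. The 5 perirenal libraries at 217 to 283 lie above every sternum library, and PRAT6 lies at 36.9.

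PRAT6 held the family in a different composition from the rest of its depot. It had 18109 CPM of miR-181a, the lowest of the 36 libraries, against 39905 ± 8669 CPM in the other 5 perirenal libraries (SD). It had 1615 CPM of miR-181b, against 3163 ± 1059 CPM. Its miR-181c was 493 CPM, against 152 ± 22.6 CPM, and its miR-181d was 41.6 CPM, against 17.4 ± 3.98 CPM. All 4 members of PRAT6 thus lay outside the range of the other perirenal libraries, with the abundant pair below it and the scarce pair above it. Beside these values, the leukocyte list summed to 13982 CPM in PRAT6, against 4720 to 25962 CPM in the other perirenal libraries, and the endothelial list to 16731 CPM, against 18302 to 33000 CPM. Of the 7 muscle miRNAs, 0 were at 0 in PRAT6. The part of other tissue in the miR-181 values of PRAT6 was not tested. OAT6, from the same buffalo, had the same pattern of members within its own depot. Its miR-181a and miR-181b, at 21751 and 1534 CPM, were the lowest omental values. Its miR-181c and miR-181d, at 328 and 35 CPM, were the highest. OAT6 had 64.1 reads of the abundant pair per read of the scarce pair, against 127 to 261 in the other omental libraries. SSAT6, by contrast, had the highest sternum miR-181a, at 40422 CPM.

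The miRNAs that lie beside the miR-181c and miR-181d cluster in human are miR-23a, miR-27a and miR-24, of which 5 rows were measured. In SSAT 2 of 5 were called higher than in the other 5 depots by edgeR's test, and 5.55% of all features were. miR-23a rose by 1.76 ± 0.24 (log2, SE, adjusted p = 6.91e-06). miR-27a-3p, which is known to restrain fat cell differentiation in mouse cultures, rose by 0.81 ± 0.18 (adjusted p = 0.00568). In subcutaneous over visceral fat 3 of 5 were called higher, where 7.2% of all features were, and the difference from the family was not tested. Over the 36 libraries r with miR-181c was 0.39 for miR-23a and 0.45 for miR-27a-3p, and r with miR-181d was 0.43 and 0.34. For the other rows, miR-27a-5p, miR-24 and miR-24-3p, r with miR-181c was -0.04, 0.14 and 0.05. With miR-181d it was -0.13, 0.40 and 0.18. Positions in the buffalo genome were not used here.

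miRNAs of inflammation and T cells, among which miR-181a is often counted, were measured in the same libraries. Of 9 tested rows of that list, 0 rose and 3 fell in subcutaneous relative to visceral fat: miR-142-3p by a log2 difference of -2.51 (adjusted p = 0.00821), miR-142-5p by -1.93 (adjusted p = 0.0145) and miR-146a by -0.96 (adjusted p = 0.0436). miR-142 is made mainly in blood-forming cells, and miR-146a is a brake on innate immune signalling. The 2 miR-142 rows were scarce, with means of 9.86 and 13.0 CPM. Of the 6 rows not called, miR-125b and miR-223 leaned up, at 0.47 and 0.45, and the rest leaned down. The list's median log2 difference was -0.96, beside -0.09 over all tested features and 0.02 over the 4 members of the family. Of all features 9.3% were called lower between the classes, and the list was not tested against the family. In SSAT 0 of 9 rows were called.

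Markers of other cell types were measured beside the family's differences. Between subcutaneous and visceral fat 0 of 2 endothelial rows and 0 of 3 erythroid rows were called. In subcutaneous fat 3 of 6 leukocyte rows fell, all of them also in the inflammation list. The other 3 were not called, and among them miR-223 leaned up. There 1 of 6 muscle rows and 5 of 5 epithelial and mesothelial rows fell too. Of all features 9.3% were called lower between the classes. In SSAT, where miR-181d was called, the summed level of the erythroid list was 8231 to 35036 CPM with a median of 17042 CPM, against 15258 to 185650 CPM with a median of 49442 CPM in the other 30 libraries. 1 of its 3 rows fell there, miR-451, a microRNA of red cells, by a log2 difference of -1.43 (adjusted p = 0.0174). Of all features 9.3% were called in SSAT in either direction. SSAT4 had the lowest erythroid sum at 8231 CPM. Low erythroid sums were not confined to SSAT. In IAT the libraries of buffaloes 1 to 6 had 24559, 15258, 57758, 18568, 19927 and 73366 CPM, whereas BSAT had 45988 to 185650 CPM. The leukocyte list summed to 1559 to 6696 CPM in SSAT, against 1941 to 46975 CPM in the other libraries, with 0 of 6 rows called. The muscle list summed to 35.9 to 58.2 CPM in SSAT, against 23.6 to 2949 CPM. In SSAT4 miR-208a and miR-208b were at 0, and miR-208a did not pass the filter on low counts in the series. The part of these cells in the level of miR-181d was not tested.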

How the data were processed

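Small RNA libraries of 36 adipose samples, 6 depots of 6 buffaloes, were analysed. The authors deposited whole-number read counts for each row and library. Beside them the authors deposited RPM values, which equalled the count over the library total to within 4.79e-06. The labels' protocols name a QIAGEN lipid tissue RNA kit. The submitters' processing notes name DESeq2 1.24.0 without saying what it did. For the aligner, miRNA caller and genome build the record is: not given in the sources used here. A blank row with 0 counts was left out.

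Depots and animals came from the labels. Counts were tested in R 4.3.3 with edgeR 4.0.16 (TMM, filterByExpr with a minimum count of 10, robust quasi-likelihood fit, 1 coefficient per depot, 30 residual degrees of freedom). Benjamini-Hochberg adjustment ran over 667 features in each contrast, with a threshold of 0.05. Log2 CPM, with a prior count of 2, served for correlations and shares of variance. The 95% intervals come from the same fit, and reads carry no molecular identifiers. Libraries of a depot differed by more than sampling noise, with a chi-square per degree of freedom of at least 525.

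Libraries of the same animal deviated together, with a mean r of 0.20 against -0.04 between animals, and 64 of 90 such pairs exceeded 0.1; the animal numbers pair the libraries because they are the same animals. The alternatives were other scalings and filters, animal blocks, a term for the library letter or letter B alone, DESeq2 1.42.0, limma 3.58.1 on log2(RPM + 1), classes fitted as 2 groups, counts summed per animal, and leaving out each animal. Leaving out each library was added after seeing the data. The fit was tested on simulated data.

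The family, its rule and the lists were chosen with earlier results of these data known. All rows of the family are named. From the rest, the 3 named miRNAs most like each member or the sum and with a mean of at least 10 CPM are named. Rows of miR-23a, miR-27a and miR-24 are named where a result turns on them. Rows of the inflammation list are named where they were called or leaned up between the classes. Correlations, shares, ratios and sums were given no test.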

Additional observations from a re-analysis of the deposited data

Results flagged for a closer look

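In 4 of 30 groups of 6 libraries, counting each member and the family sum in each depot, 1 library lay farther from the nearest other than Dixon's 95% critical value for 6 samples allows. For independent groups of normally distributed values chance gives about 1 in 20. The groups here share libraries, and the family sum is nearly all miR-181a, so 4 of 30 cannot be read as an excess. miR-181c in PRAT6 was 493 CPM and the next perirenal library had 179 CPM. miR-181d in the same library was 41.6 CPM, with the next at 24.1 CPM. miR-181d in SSAT4 was 78.6 CPM, and the next sternum library had 35.3 CPM. miR-181b in SSAT2 was low at 1652 CPM, with the nearest sternum library at 2348 CPM. SSAT2 was also the lowest sternum library for miR-181a, at 20164 CPM.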

How the results depend on the processing

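The absence of calls between subcutaneous and visceral fat held for the 4 members under every alternative except library totals alone, where miR-181b was called at -0.32 and miR-181c and miR-181d turned to -0.083 and -0.091. limma turned these to -0.023 and -0.061, and counts summed per animal and class turned miR-181a to 0.057 and miR-181b to 0.011. Leaving out each animal or library gave -0.21 to 0.019 for miR-181a between the classes, where it turned without buffalo 1 (0.015) or buffalo 5. In PCAT against the other depots miR-181a turned to 0.028 with library totals and 0.048 with limma. Among letter B libraries miR-181c in PRAT against the other depots turned from -0.26 to 0.13 and miR-181d from -0.34 to 0.069. The letter B perirenal libraries are PRAT3, PRAT5 and PRAT6 alone. Apart from the effect of scaling on the median of all features, the cause was not tested.

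miR-181d in SSAT lost its call with library totals (0.42), no filter (0.75, adjusted p 0.0898), a term for the library letter (0.64, adjusted p 0.0708), letter B alone (0.71) and limma (0.37), each of which left 0 of 24 tests of a depot against the other 5 called. Omissions gave 0.34 to 0.88, and the call was lost without buffalo 3 (0.70, adjusted p 0.0616), buffalo 5 (0.74, adjusted p 0.0532), buffalo 4 (0.40, adjusted p 0.332) and SSAT4. It kept its call with RLE factors (0.78), a floor of 10 CPM (0.73), the replicate block of the animal (0.67, adjusted p 0.0331) and DESeq2 (0.78). Over the 6 depots, miR-181d was called with features of at least 10 CPM (0.89) and DESeq2 (0.96), with 0.53 to 1.19 over omissions, and miR-181b ranged from 0.41 to 0.74.

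Of the 60 pairwise tests of members, 1 was called with RLE factors, 2 with features of at least 10 CPM, 1 with the replicate block and 3 with DESeq2, and omissions gave 0 to 3. Omissions gave 0 to 3 calls of 24 against the other 5 depots, with 3 without PRAT6. The replicate block changed no other call of a member.

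Over all features, the 110 calls between the classes became 71 with a term for the library letter, 39 in letter B libraries and 44 with counts summed per animal, and 56 to 129 over omissions. The 93 calls over the depots became 43 in letter B libraries and 172 with DESeq2, and 40 to 104 over omissions. The 62 calls in SSAT became 30 with no filter, 25 in letter B libraries and 97 with DESeq2, and 16 to 80 over omissions. Of the calls in SSAT 59.7% were higher, beside 28.1% with library totals, 17.9% with limma and 70.8% with RLE factors. Between the classes 43.6% were higher, beside 18.8% with library totals and 19.3% with limma.

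Depth limits miR-181d most, with as few as 182 reads in a library. How reads of near-identical members were assigned is not given in the sources used here, and the values of single members carry that doubt. Each depot has 6 libraries, and 1 library moved several calls.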

Other observations

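miR-181c and miR-181d were often highest in buffalo 6. Among the 6 depots, buffalo 6 had the highest miR-181c in 3 and the highest miR-181d in 4. Its mean miR-181c over the depots was 337 CPM, and the other 5 animals had 189 to 247 CPM. Without the perirenal depot it was 306 CPM, and the others had 202 to 265 CPM. Its mean miR-181d was 33.3 CPM, followed by buffalo 4 at 31.5 CPM. Without the sternum depot buffalo 6 had 33.4 CPM and buffalo 4 had 22.1 CPM. Without the perirenal depot the order turned, with 31.7 CPM in buffalo 6 and 34.4 CPM in buffalo 4. miR-181a was highest in buffalo 5 in 3 of 6 depots, with a mean of 38533 CPM. The labels give no trait of an animal, and differences between animals were not tested.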
